A study of Gossypium hirsutum with 18 samples.

Results

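Laccases are oxidases with several copper atoms that take electrons from small phenolic compounds and pass them to oxygen. In plant cell walls they act beside class III peroxidases on the monolignols, the alcohols that are joined into lignin, the polymer that stiffens and waterproofs xylem, fibres and the root endodermis. In Arabidopsis, LAC17 and LAC11 take part in the lignification of stems, and another member of the family oxidises flavonoids in the seed coat. The roles of most other laccases, LAC14 among them, are less clear, and copper shortage lowers several of them in Arabidopsis through small RNAs.

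Of 70478 genes in the deposited table, 104 had a description that contained the word laccase in any case, and 77 of these had a count above 0 in at least 3 of the 18 libraries. These 77 genes are the laccases described here. Of the 27 that the rule left out, 15 were at 0 in every library and 12 had some counts, at most 17 in a library. Just inside the rule, 8 of the 77 had counts in exactly 3 libraries, with highest counts between 3 and 77.

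The RNA came from root and leaf of upland cotton, Gossypium hirsutum, a species that carries an A and a D copy of most genes. There were 6 groups of 3 libraries, namely CK, AS and SAS in root and the same in leaf. AS and SAS are the codes of alkaline treatments, and CK is read here as the control. The treatment text, the same for every library, names 125 mM NaHCO3 and NaOH of equal pH for 12 h on seedlings moved out of soil, and it ties neither solution to a code. The cultivar, the age of the seedlings and whether CK plants were also moved are not given. No label ties a library to a plant of its own, so a p-value here reflects the scatter of 3 libraries, part or all of which may be technical. Libraries held between 46345805 and 66843791 counts. Leaf mesophyll markers, 64 genes of the photosystem antenna and Rubisco small subunit, summed to between 4196 and 18906 in leaf libraries. They summed to between 156 and 615 in root libraries, so the tissue labels hold on these sums. Gh_D03G1402, a Rubisco small subunit gene among them, went the other way, with means of 256 in CK root and 1.86 in CK leaf.

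Levels below are in scaled FPKM, the deposited FPKM divided by a TMM factor that evens out library composition. FPKM are fragments per kilobase of gene, scaled for depth, so levels are set side by side between genes. Where copies share reads this is uncertain, as the treatment of such reads is not given. The descriptions named 18 genes laccase 14, 15 laccase 17, 8 laccase 7, 5 laccase 5, 5 laccase 2, 4 laccase 11, 3 laccase 6, 2 laccase 13 and 2 laccase 3, and 15 were given only as laccase/diphenol oxidase. These names follow likeness to Arabidopsis genes. By their gene names 37 lay in the A subgenome, 34 in the D subgenome and 6 on unplaced scaffolds. All 77 carried a copper-binding annotation, and 40 carried a lignin annotation in the deposited Gene Ontology terms.

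The lignin annotation and the abundant transcripts fell on different laccases. None of the 18 laccase 14 genes and none of the 8 laccase 7 genes carried the lignin annotation, while all 15 laccase 17, 5 laccase 2, 4 laccase 11 and 3 laccase 6 genes and 13 of the 15 unnumbered genes did. A gene with the annotation reached at most 2.66 scaled FPKM in a library, in SAS root replicate 1. The highest level of a gene without the annotation was 2805. Summed over the 40 annotated genes, the level was 1.62, 2.64 and 2.26 in the 3 CK root libraries. In CK leaf it was 8.2, 8.67 and 8.74. The annotated genes were higher in CK leaf than in CK root, with no overlap between these libraries. Summed over the 37 others, it was 5769, 8606 and 8332 in CK root and 73, 64.9 and 84.7 in CK leaf.

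**Figure D1:**
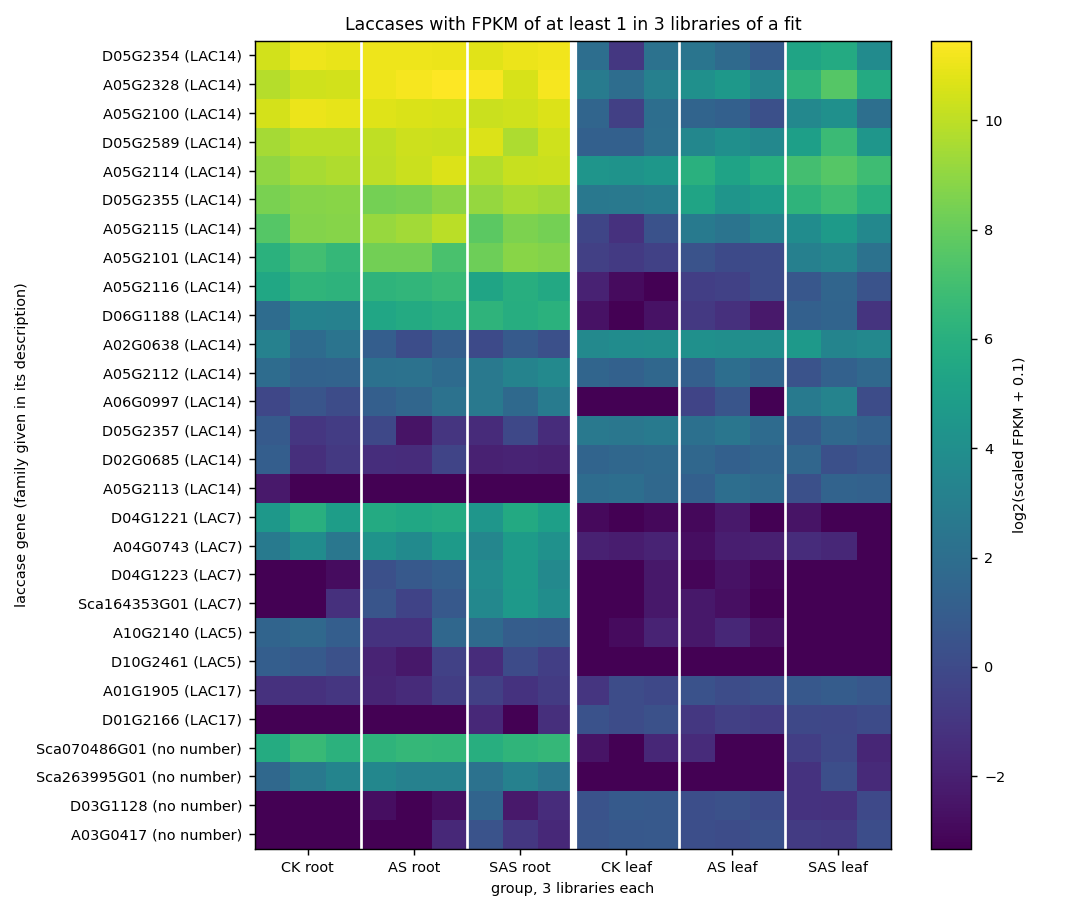
Level of the 28 laccases that passed the filter on low values in a fit, as log2 of scaled FPKM plus 0.1, with a row for each gene grouped by family and a column for each of the 18 libraries. The bright block at the upper left is the root laccase 14 genes, and a smaller block of laccase 14, laccase 17 and unnumbered genes is brighter in leaf than in root.

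Most laccase RNA in root was laccase 14. The summed level of all 77 laccases was 5771, 8609 and 8334 in CK root, 9647, 10285 and 11286 in AS root and 9362, 8895 and 10669 in SAS root. Laccase 14 made up 97.4% to 98.5% of it in the 9 root libraries. The 3 CK leaf libraries had sums of 81.2, 73.6 and 93.5. In AS leaf the sums were 188, 152 and 164, and SAS leaf had 438, 745 and 321. The 3 leaf groups did not overlap, and the AS and SAS root libraries lay above all 3 CK root libraries. Of the unscaled deposited FPKM, laccases held 0.657% to 0.980% in root libraries, and the 3 root groups overlapped on that measure. In leaf they held 0.0100% to 0.0130% in CK, 0.0227% to 0.0275% in AS and 0.0495% to 0.111% in SAS, again without overlap.

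Tests needed a deposited FPKM of at least 1 in at least 3 libraries of the fit, which 21 laccases met in root and 19 in leaf. In all, 28 laccases were tested and 49 were not. The 28 were 16 laccase 14, 4 laccase 7, 2 laccase 17, 2 laccase 5 and 4 unnumbered genes. The highest level of an untested laccase in any library was 1.35, in Gh_A05G2622 in root. A gene that passed only through a group where it is high had to differ between groups, so the counts below describe the genes that were tested and not the family.

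In CK plants the tested laccases split into root and leaf genes. Between CK root and CK leaf 17 of 28 laccases were higher in root, where 31.4% of all genes tested were, and 8 were lower, where 34.7% of all genes were (edgeR quasi-likelihood test, adjusted p under 0.05). The median log2 difference of the 28 was 5.92 toward root. Bulk RNA cannot tell fewer cells of a type from less RNA per cell.

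The laccase with the highest mean level in CK root was Gh_D05G2354 (chromosome D05, 23304099 to 23306467, minus strand), a laccase 14 gene. Its level was 1416, 2188 and 2019 in CK root and 3.98, 0.422 and 4.68 in CK leaf. The log2 difference was 9.28 ± 0.88, adjusted p = 2.16e-07, and all root libraries lay far above all leaf libraries. Gh_A05G2100 (A05, 23711696 to 23714334, minus strand), also laccase 14, was at 1452, 2086 and 1920.3 in CK root. It was at 2.71, 0.592 and 3.93 in CK leaf, a log2 difference of 9.56 ± 0.77, adjusted p = 3.83e-08. Gh_A05G2328 (A05, 27922427 to 27923758, plus strand) was next, at 909.6, 1364 and 1398 in CK root against 6.88, 3.78 and 8.53 in CK leaf, a log2 difference of 7.58 ± 0.58, adjusted p = 2.13e-08. Gh_D05G2354 and Gh_A05G2100 overlapped in their CK root levels, and all CK root libraries of Gh_A05G2328 lay below them. CK root replicate 1 was the lowest library for each of these genes. Together with Gh_D05G2589, Gh_A05G2114 and Gh_D05G2355, they made up 90.4% to 92.8% of the laccase level in CK root. The FPKM of Gh_A05G2328 and Gh_D05G2589 rest on 962 bp and those of Gh_A05G2114 and Gh_D05G2355 on 956 bp. Those of Gh_D05G2354 and Gh_A05G2100 rest on 1841 and 1751 bp. Ranks and shares among these genes are uncertain. The log2 difference between the tissues was 9.95 ± 0.67, adjusted p = 6.43e-09 for Gh_A05G2116 and 8.83 ± 0.62, adjusted p = 9.78e-09 for Gh_A05G2115, neighbours in the A05 run described below.

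The root laccases outside laccase 14 were laccase 7 and laccase 5 genes and short scaffold models. Gh_D04G1221 (D04, 40131410 to 40134195, plus strand), a laccase 7 gene, was at 23.7, 62.6 and 29.6 in CK root and 0.0312, 0 and 0.0261 in CK leaf, a log2 difference of 10.88 ± 0.90, adjusted p = 5.05e-08. The laccase 5 gene Gh_D10G2461 was at 2.04, 1.7 and 1.17 in CK root and at 0 in all 9 leaf libraries. Against a floor of 3 counts per library its CK root level was at least 75.8-fold higher than in CK leaf. Gh_Sca263995G01, at 3.03, 6.3 and 10.2 in CK root and 0 in CK leaf, was at least 27.4-fold higher by the same floor. Gh_Sca070486G01 was at 53.4, 97.5 and 71.7 in CK root and 0.0734, 0 and 0.211 in CK leaf. These scaffold models span 156 bp each, so their reads may be shared with near-identical copies and their levels are uncertain.

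The 8 laccases higher in CK leaf were 4 laccase 14, 2 laccase 17 and 2 unnumbered genes, all at low or moderate levels. Gh_A02G0638 (A02, 10108128 to 10110615, minus strand), laccase 14, was at 12.4, 14.4 and 14.9 in CK leaf and 8.98, 3.45 and 5.01 in CK root, a log2 difference of -1.25 ± 0.37, adjusted p = 0.00764 for root relative to leaf. Gh_D05G2357 (D05, 23404259 to 23405738, plus strand), laccase 14, was at 6.07, 5.77 and 6.4 in CK leaf and 1.75, 0.413 and 0.514 in CK root, a log2 difference of -2.76 ± 0.62, adjusted p = 0.0011. Leaf libraries lay above root libraries for each of these genes. Gh_D02G0685, laccase 14, was at 2.63, 2.97 and 3.22 in CK leaf and 2.0, 0.298 and 0.438 in CK root (-1.68 ± 0.56, adjusted p = 0.0155), a call lost without CK root replicate 2 or 3 (adjusted p 0.0585 and 0.0666). Gh_A05G2113 (A05, 24031174 to 24033544, plus strand) had 3.62, 4.01 and 3.04 in CK leaf and, in root, 10 counts in a single CK library and none in the other 8. The laccase 17 gene Gh_D01G2166 and the unnumbered genes Gh_A03G0417 and Gh_D03G1128 were at 0 in CK root, which put them at least 36.9-fold, 49.2-fold and 50.1-fold lower there than in CK leaf against the 3-count floor. The laccase 17 gene Gh_A01G1905, at 0.38, 0.986 and 0.834 in CK leaf and 0.335, 0.328 and 0.40 in CK root, overlapped between the groups. Its log2 difference was -1.03 ± 0.39, adjusted p = 0.0285, and the call was lost without CK root replicate 1 or 2 or CK leaf replicate 2 or 3 (adjusted p 0.0705 to 0.131).

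With a filter on counts (filterByExpr) in place of FPKM, 53 laccases were tested between CK root and CK leaf, and 22 were lower in root against 20 higher. Of all genes tested with that filter, 32.2% were lower in root and 28.4% higher. The genes lower in root then included 6 of 8 laccase 17, 3 of 5 laccase 2 and 6 of 12 unnumbered genes, and 0 of the laccase 17 and laccase 2 genes were higher in root. Of 17 laccase 14 genes tested, 11 were higher and 5 lower in root. Which tissue had more of the called laccases thus changed with the filter.

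Most of the abundant laccase 14 genes sat in runs on chromosomes A05 and D05. The A05 run held 9 laccases between 23696963 and 24097318, a span of 400.4 kb, and the D05 run held 5 between 23292980 and 23405738, a span of 112.8 kb. Coordinates are those of the deposited table, and no build is named for them. Gh_A05G2328 and Gh_D05G2589 (D05, 26483090 to 26484421, plus strand) lay outside the runs on the same chromosomes, and their models share a span of 1332 bp.

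Neighbours in a run differed in tissue. Gh_A05G2113, a leaf gene, lay beside Gh_A05G2114 (A05, 24052935 to 24055480, minus strand), which was at 521, 722 and 822 in CK root and 20.5, 19.4 and 22.1 in CK leaf. Gh_A05G2112 (A05, 23921743 to 24020333, minus strand) was near even, at 3.57, 2.38 and 2.54 in CK root and 2.77, 2.27 and 2.92 in CK leaf, with a log2 difference of 0.09 ± 0.33, adjusted p = 0.814. Its model spans 98591 bp and that of Gh_D05G2355 68490 bp, with 965 and 956 bp behind their FPKM. In the D05 run, Gh_D05G2354 and Gh_D05G2355 (D05, 23311833 to 23380322, plus strand) were root genes and Gh_D05G2357 was a leaf gene. The members at the outer ends of the A05 run were near 0, with Gh_A05G2099 and Gh_A05G2117 reaching at most 0.162 and 0.311 scaled FPKM in any library.

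**Figure D2:**
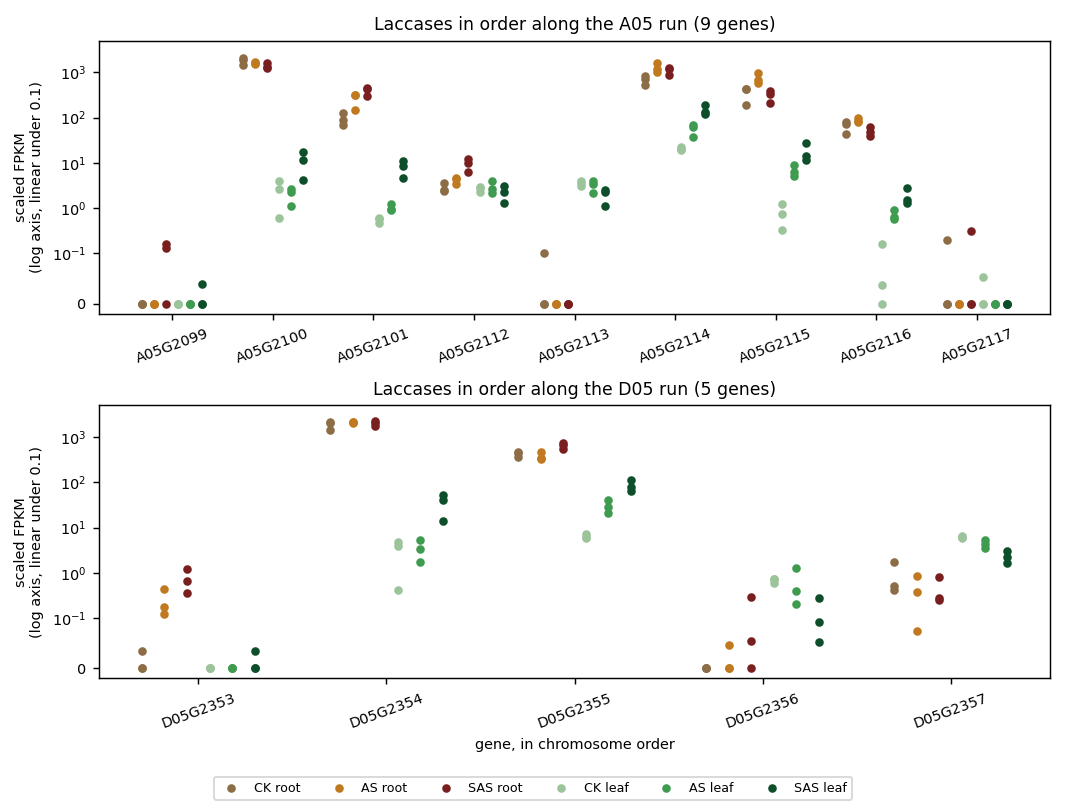
Scaled FPKM of each laccase in chromosome order along the A05 run of 9 genes and the D05 run of 5 genes, on a log axis that is linear under 0.1, with a point for each library coloured by group. In each run a gene that is higher in CK leaf (Gh_A05G2113 and Gh_D05G2357) stands near genes that are far higher in root.

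In AS root, 8 of 21 tested laccases rose against CK, where 21.0% of all genes tested did, and 2 fell, where 17.0% did. The median log2 change was 0.51 over the 21 and near 0 over all genes. Those that rose were 6 laccase 14 and 2 laccase 7 genes. The AS and SAS comparisons use the same CK libraries, so their values are set side by side and not counted as agreeing. TMM scaling sets these root counts. With library totals alone the median of all genes moved by -0.48 (AS) and -0.59 (SAS). The laccase counts became 5 higher and 4 lower in AS root and 6 higher and 4 lower in SAS root. The shares of all genes printed for root are those with TMM and do not apply to the library-total counts. Nothing about the laccases is read from these counts.

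In SAS root, 8 of the 21 rose, where 28.6% of all genes tested did, and 1 fell, where 28.3% did, and the median log2 change was 0.46. Again 6 laccase 14 and 2 laccase 7 genes rose. Between the treatments, 4 were higher in SAS than in AS root (20.7% of all genes) and 2 lower (19.0%). The 4 were the laccase 7 genes Gh_D04G1223 and Gh_Sca164353G01 and the laccase 14 genes Gh_A05G2112 and Gh_D05G2355.

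Among laccases called in root, the largest fitted change was that of Gh_D04G1223 (D04, 40204685 to 40207701, plus strand). This laccase 7 gene was nearly silent in CK root. Its level was 0, 0 and 0.0377 in CK root, 1.13, 1.64 and 2.09 in AS root and 13.9, 25.9 and 12.4 in SAS root. All AS libraries lay above CK, and all SAS libraries lay above AS. The log2 change was 6.74 ± 0.70, adjusted p = 0.00013 in AS and 10.14 ± 0.69, adjusted p = 3.91e-06 in SAS, on 4 counts in all in CK root, so the folds are imprecise. SAS against AS gave 3.41 ± 0.44, adjusted p = 0.000515. In leaf its level stayed under 0.1 in every library. Gh_Sca164353G01, a 216 bp scaffold model also described as laccase 7, had levels of 0, 0 and 0.306 in CK root, 1.38, 0.677 and 1.63 in AS root and 12, 24.3 and 15 in SAS root. Its groups were ordered in the same way, and its short model may share reads with a near-identical copy. The neighbouring laccase 7 gene Gh_D04G1221 was at 23.7, 62.6 and 29.6, 53.3, 45 and 51.8 and 21.4, 50.7 and 32.2 in the CK, AS and SAS root libraries. These overlapped, and neither change passed (log2 0.33 ± 0.38, adjusted p = 0.521 in AS and -0.21 ± 0.38, adjusted p = 0.652 in SAS).

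Gh_D06G1188 (D06, 29636934 to 29639110, plus strand) and Gh_A06G0997 (A06, 47977469 to 47979639, plus strand) were the laccase 14 genes with the largest root increases. Gh_D06G1188 was at 3.7, 9.44 and 8.86 in CK root, 42.8, 51.6 and 61.4 in AS root and 76.7, 59.6 and 68.7 in SAS root. The log2 change was 2.78 ± 0.33, adjusted p = 0.00026 in AS and 3.17 ± 0.33, adjusted p = 4.52e-05 in SAS, and every treated library was above every CK library. Gh_A06G0997 was at 0.772, 1.41 and 0.985, 2.12, 2.86 and 4.59 and 6.08, 3.17 and 7.06 in the same groups. Its log2 change was 1.55 ± 0.39, adjusted p = 0.0115 in AS and 2.31 ± 0.39, adjusted p = 0.000803 in SAS, also without overlap. Both genes kept the SAS call under all 15 alternatives, and Gh_D06G1188 the AS call too. The AS call of Gh_A06G0997 was lost in 3 of the 15.

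Gh_A05G2101 (A05, 23720303 to 23722136, plus strand) rose in root under each treatment from a higher base. Its level was 70.1, 124 and 90.4 in CK root, 322, 311 and 147 in AS root and 294, 458 and 421 in SAS root. The treated libraries lay above CK, with AS replicate 3 the lowest of them. The log2 change was 1.41 ± 0.33, adjusted p = 0.00871 in AS and 1.99 ± 0.34, adjusted p = 0.00079 in SAS. Gh_A05G2112 was at 4.43, 4.63 and 3.43 in AS root and 6.17, 9.74 and 12.3 in SAS root. It rose in SAS alone of the 2 tests against CK (1.67 ± 0.30, adjusted p = 0.000979), and it was higher in SAS than in AS root (1.17 ± 0.29, adjusted p = 0.0109).

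**Figure D3:**
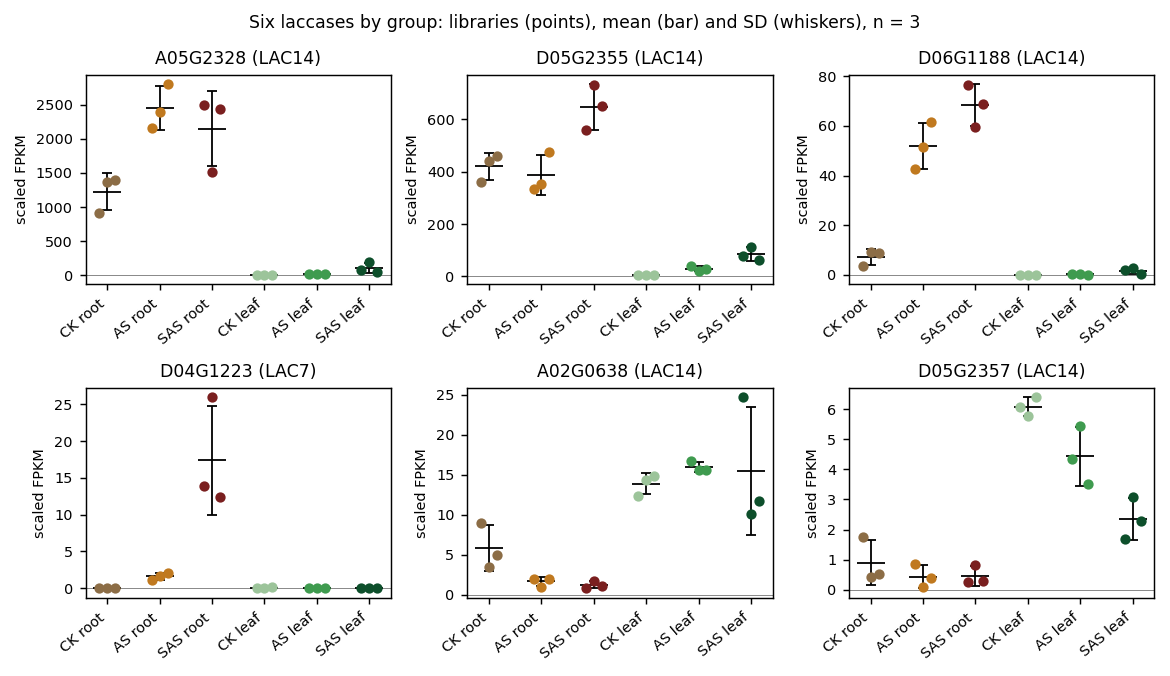
Scaled FPKM of 6 laccases on a linear axis, with a panel for each gene, a point for each library, a bar at the mean and whiskers of 1 SD (n = 3). Gh_D06G1188 and Gh_D04G1223 rise in treated roots, Gh_A02G0638 falls there, Gh_D05G2357 falls in SAS leaf, and Gh_A05G2328 and Gh_D05G2355 stay lower in SAS leaf than in root.

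The 2 laccases with the highest means in CK root were not called in root. Gh_D05G2354 was at 2194, 2164 and 2089 in AS root and 1803, 2100.4 and 2265 in SAS root, overlapping CK, and Gh_A05G2100 was at 1705, 1591 and 1527 and 1258, 1342 and 1637. The log2 change of Gh_D05G2354 was 0.15 ± 0.26, adjusted p = 0.676 in AS and 0.08 ± 0.26, adjusted p = 0.816 in SAS, and the sign of both turned with library totals. That of Gh_A05G2100 was -0.22 ± 0.25, adjusted p = 0.506 in AS and -0.42 ± 0.25, adjusted p = 0.17 in SAS. With library totals Gh_A05G2100 was called lower, at -0.68 in AS (adjusted p 0.0259) and -0.95 in SAS (0.00369), and limma called it lower as well, in AS at a pseudocount of 1 (adjusted p 0.0467) and in SAS at both pseudocounts (0.0077 and 0.00957). Gh_A05G2328 reached 2164, 2399 and 2805 in AS root and 2498, 1519 and 2439 in SAS root, above all CK libraries. Its log2 change was 0.96 ± 0.29, adjusted p = 0.0254 in AS and 0.76 ± 0.29, adjusted p = 0.0441 in SAS. Gh_D05G2589 was at 693, 977 and 969 in CK root. It was at 1052, 1275 and 1252 in AS root and 1602, 804 and 1357 in SAS root, and passed in neither.

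Several root calls depended on single libraries and on the scaling. Gh_A05G2114 was at 997, 1215 and 1642 in AS root and 869, 1194 and 1244 in SAS root, above all CK root libraries. The AS root calls of Gh_A05G2114 (0.85 ± 0.27, adjusted p = 0.0333) and Gh_A05G2115 (1.05 ± 0.37, adjusted p = 0.0465) were lost without CK root replicate 1 (adjusted p 0.101 and 0.114), and that of Gh_A05G2328 too (0.0749). Each was also lost without CK root replicate 2 and without AS root replicates 2 or 3, with adjusted p between 0.0542 and 0.124. Gh_A05G2115 was lost without any of the 6 libraries, at up to 0.124. With library totals the AS calls of Gh_A05G2328, Gh_A05G2114 and Gh_A05G2115 were lost as well (log2 changes of 0.51, 0.41 and 0.62, adjusted p 0.138, 0.208 and 0.16), and so they were with limma (adjusted p 0.152 to 0.302). The SAS root call of Gh_A05G2328 was lost without any of the CK root libraries and without SAS root replicate 1 or 3 (adjusted p 0.0563 to 0.128). That of Gh_D05G2355 (0.57 ± 0.21, adjusted p = 0.042) was lost without any of the CK root libraries and without SAS root replicate 2 or 3 (adjusted p 0.058 to 0.125). With library totals these 2 SAS calls were lost too, and the log2 changes were 0.24 and 0.04.

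In the A05 run 2 genes were lower in SAS than in AS root, Gh_A05G2112 was higher, and Gh_A05G2100, Gh_A05G2101 and Gh_A05G2114 were not called. The summed level of the run, 3686, 3877 and 4411 in AS root and 2676, 3444 and 3698 in SAS root, overlapped. Gh_A05G2115 (A05, 24060793 to 24063195, plus strand) was at 189, 419.7 and 438 in CK root, 579, 669 and 991 in AS root and 209, 378 and 335 in SAS root. SAS libraries lay below all AS libraries and overlapped CK, and SAS against AS gave -1.29 ± 0.37, adjusted p = 0.02, lost without SAS root replicate 1 (adjusted p 0.065). Its neighbour Gh_A05G2116 (A05, 24066813 to 24069230, plus strand) was at 78.6, 85.7 and 99.7 in AS root and 39.9, 61.6 and 49.1 in SAS root. That difference was -0.82 ± 0.25, adjusted p = 0.024, lost without AS root replicate 2 or 3 or SAS root replicate 1 or 3 (adjusted p 0.05 to 0.0741). Gh_D05G2355 went the other way, from 336, 352 and 476 in AS root to 559, 733 and 653 in SAS root (0.73 ± 0.21, adjusted p = 0.0212), with the call lost without AS root replicate 1 or 2 or SAS root replicate 2 or 3 (adjusted p 0.0514 to 0.0785).

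The laccases that fell in root were Gh_A02G0638, laccase 14, and Gh_D10G2461, laccase 5. Gh_A02G0638 fell from 8.98, 3.45 and 5.01 in CK root to 2.02, 1.02 and 1.99 in AS root and 0.907, 1.72 and 1.11 in SAS root, without overlap. The log2 change was -1.84 ± 0.41, adjusted p = 0.00694 in AS and -2.28 ± 0.42, adjusted p = 0.0013 in SAS, called under all 15 alternatives. Gh_D10G2461 fell from 2.04, 1.7 and 1.17 to 0.175, 0.0902 and 0.627 in AS root (-2.48 ± 0.67, adjusted p = 0.0164), a call lost without AS root replicate 1 or 2 (adjusted p 0.0594 and 0.0504). In SAS root it was at 0.264, 0.923 and 0.569, also below CK but not called (-1.52 ± 0.64, adjusted p = 0.0673).

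In AS leaf, 5 of 19 tested laccases rose against CK, where 11.5% of all genes tested did, and 1 fell, where 9.21% did. In SAS leaf, 11 of the 19 rose (27.2% of all genes) and 3 fell (26.0%), with a median log2 change of 2.30. Between the treatments 9 were higher in SAS than in AS leaf (20.7% of all genes) and 2 lower (19.3%), with a median of 1.43. Of the 11, 10 were laccase 14 and 1 was laccase 17, and library totals gave the same SAS counts. Gh_A05G2101, Gh_A05G2115, Gh_A05G2116 and Gh_A06G0997 met the leaf filter only with treated leaf libraries, which favoured a rise. Of 19 further laccases that the filter on counts added in leaf, 1 rose in SAS leaf (24.6% of all genes with that filter) and 5 fell (22.3%). The counts with the FPKM filter are therefore not read as a result about laccases.

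The laccase 14 genes that rose in SAS leaf included the 6 highest laccases of CK root. Gh_D05G2355 was at 6.0, 6.23 and 7.2 in CK leaf, 39.7, 20.7 and 29 in AS leaf and 78.3, 114 and 63.7 in SAS leaf. All AS libraries were above CK and all SAS libraries above AS. The log2 change was 2.25 ± 0.27, adjusted p = 0.000929 in AS and 3.83 ± 0.29, adjusted p = 2.12e-05 in SAS. Gh_A05G2114, the highest laccase in CK leaf, went from 20.5, 19.4 and 22.1 in CK leaf to 67.1, 37.9 and 61.3 in AS leaf and 132, 185 and 119 in SAS leaf. Its groups were ordered in the same way, with log2 changes of 1.47 ± 0.23, adjusted p = 0.0026 in AS and 2.92 ± 0.24, adjusted p = 2.74e-05 in SAS.

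Gh_A05G2328 was at 16.9, 23 and 10.7 in AS leaf and 73.5, 189.5 and 52.2 in SAS leaf. SAS libraries were above AS, and AS above CK. The AS change did not pass (1.45 ± 0.49, adjusted p = 0.0624) and the SAS change did (4.15 ± 0.54, adjusted p = 0.000205). Gh_D05G2589 was at 2.24, 2.21 and 4.12, 11.5, 16.3 and 11.8 and 32.2, 108 and 21.3 in CK, AS and SAS leaf. Its log2 change was 2.25 ± 0.56, adjusted p = 0.0191 in AS, lost without CK leaf replicate 1 or 2 (adjusted p 0.0705 and 0.0794), and 4.34 ± 0.59, adjusted p = 0.000274 in SAS. SAS leaf replicate 2 was the highest library for each of these genes.

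Gh_A05G2115 was at 0.757, 0.327 and 1.21 in CK leaf, 6.39, 5.12 and 8.85 in AS leaf and 14.5, 26.8 and 11.8 in SAS leaf (3.19 ± 0.46, adjusted p = 0.00181 in AS and 4.63 ± 0.48, adjusted p = 7.08e-05 in SAS). Gh_A05G2116 was lower throughout, at 0.162, 0.0369 and 0, 0.565, 0.634 and 0.918 and 1.5, 2.71 and 1.27. It rose by 3.45 ± 0.75, adjusted p = 0.0116 in AS, lost without CK leaf replicate 2 (adjusted p 0.057), and by 4.88 ± 0.77, adjusted p = 0.000565 in SAS. Each gene kept the order CK, AS, SAS without overlap. The genes with the highest mean levels in CK root were called in SAS leaf and not in AS leaf. Gh_D05G2354 was at 5.21, 3.4 and 1.76 in AS leaf and 39.96, 52.1 and 13.9 in SAS leaf (0.25 ± 0.73, adjusted p = 0.838 in AS, 3.66 ± 0.78, adjusted p = 0.00311 in SAS, 3.41 ± 0.77, adjusted p = 0.00701 for SAS against AS). Gh_A05G2100 was at 2.58, 2.23 and 1.14 in AS leaf and 11.7, 16.9 and 4.12 in SAS leaf (2.30 ± 0.65, adjusted p = 0.0136 in SAS). SAS against AS passed for it too (2.52 ± 0.66, adjusted p = 0.0135), but not without AS leaf replicate 3 (adjusted p 0.0527).

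Gh_A06G0997 was at 0 counts in all CK leaf libraries, at 0.703, 1.38 and 0 in AS leaf and at 6.72, 9.63 and 0.987 in SAS leaf. Replicate 3 was the lowest in each treated group. Against a floor of 3 counts per library, SAS leaf was at least 263-fold higher than CK leaf, and the difference was called (adjusted p = 0.00321, edgeR). The AS change was not called (adjusted p = 0.051, edgeR).

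Gh_A05G2101 rose in SAS leaf alone of the tests against CK, from 0.588, 0.472 and 0.615 in CK leaf and 1.26, 0.905 and 0.953 in AS leaf to 8.58, 10.8 and 4.67 in SAS leaf (3.94 ± 0.33, adjusted p = 2.94e-05). The laccase 17 gene Gh_A01G1905 (A01, 98990679 to 98995193, minus strand) rose from 0.38, 0.986 and 0.834 in CK leaf to 1.59, 1.86 and 1.49 in SAS leaf (1.26 ± 0.31, adjusted p = 0.00645). It was the only lignin-annotated laccase among the 11 that rose, and only 4 of the 40 lignin-annotated laccases were tested. In SAS leaf 27.2% of all genes tested rose, so nothing about the annotated laccases is read from this count.

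Of the 8 laccases higher in CK leaf than in CK root, 3 fell in SAS leaf (26.0% of all genes did), Gh_A01G1905 rose (27.2%) and 4 were not called. These 8 were picked by their high level in the CK leaf libraries that also serve as the baseline here, so nothing is read from that count. Gh_D05G2357 went from 6.07, 5.77 and 6.4 in CK leaf to 4.36, 5.45 and 3.5 in AS leaf and 1.67, 3.07 and 2.28 in SAS leaf, with each group below the one before it. It fell in SAS (-1.27 ± 0.23, adjusted p = 0.00139). The unnumbered genes Gh_A03G0417 (A03, 8607635 to 8610346, plus strand) and Gh_D03G1128 (D03, 37433498 to 37436758, minus strand) also fell. The first went from 1.41, 1.59 and 1.61 to 0.484, 0.454 and 1.01 (-1.13 ± 0.29, adjusted p = 0.00791). The second went from 1.29, 1.73 and 1.68 to 0.356, 0.334 and 0.844 (-1.51 ± 0.34, adjusted p = 0.00408). These 3 calls were lost in one fit of all 18 libraries, at adjusted p 0.0718, 0.252 and 0.155. Gh_A05G2113 was at 1.13, 2.5 and 2.31 in SAS leaf, below all CK leaf libraries, without passing (-0.74 ± 0.30, adjusted p = 0.0587). Gh_D01G2166, laccase 17, fell in AS leaf, from 1.21, 0.981 and 1.17 to 0.418, 0.60 and 0.507 (-1.09 ± 0.22, adjusted p = 0.00764), and was at 0.821, 0.782 and 0.918 in SAS leaf. The fit of all 18 libraries lost that call too (adjusted p 0.337). Gh_A02G0638 and Gh_D02G0685, the other leaf-high laccase 14 genes, were called in none of the leaf tests.

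Laccases under the FPKM filter were read with the filter on counts, which added 9 laccases in root and 19 in leaf. Of the 9 in AS root, 1 rose (17.3% of all genes with this filter) and 1 fell (12.9%). Of the 9 in SAS root, 2 rose (24.3%) and 2 fell (23.4%), and 1 was higher in SAS than in AS root (16.5% higher and 15.7% lower over all genes). The unnumbered gene Gh_D05G2353, at the end of the D05 run, was at 0, 0.0353 and 0 in CK root, 0.177, 0.122 and 0.447 in AS root and 0.661, 1.23 and 0.359 in SAS root. Its groups rested on 4, 62 and 162 counts, and it rose in AS (log2 change 4.14 ± 1.13, adjusted p = 0.021) and in SAS (5.64 ± 1.17, adjusted p = 0.003). Gh_A03G0417, which fell in SAS leaf, had 88, 30 and 15 counts in the SAS root libraries and 0 in CK root (adjusted p = 0.017, edgeR). Gh_A08G2350, laccase 13, had 5 counts in SAS root against 133 in CK root (-4.23 ± 1.55, adjusted p = 0.0457). Gh_D02G0685 fell from 2.0, 0.298 and 0.438 in CK root to 0.159, 0.176 and 0.157 in SAS root (-2.43 ± 0.76, adjusted p = 0.0244). CK root replicate 1 lay far above the other CK root libraries, so the size of the fall rests largely on it. Gh_D05G2912, unnumbered, fell in AS root (-2.32 ± 0.59, adjusted p = 0.0147).

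In AS leaf all 19 added laccases were uncalled, and the share of all genes with this filter is not given for AS leaf. In SAS leaf 1 of the 19 added laccases rose, where 24.6% of all genes with this filter did, and 5 fell, where 22.3% did. Against AS leaf 1 was higher and 3 lower in SAS leaf, each set beside 16.9% of all genes. The gene that rose was Gh_D06G1188, at 0.0627, 0 and 0.0654 in CK leaf and 2.18, 2.6 and 0.36 in SAS leaf (5.37 ± 0.995, adjusted p = 0.00168). Those that fell included Gh_D04G1220, laccase 7, with 99 counts in CK leaf and 0 in SAS leaf (adjusted p = 0.0064), and Gh_D11G1042, laccase 6, with 58 and 0 (adjusted p = 0.00226). Summed over the 40 laccases with a lignin annotation, the level was 3.75, 5.15 and 6.77 in SAS leaf, below the 3 CK leaf libraries. In SAS root it was 11.1, 6.05 and 3.87, above the 3 CK root libraries. Replicate 1 was the highest, with Gh_D03G1128 at 2.66, 0.101 and 0.27 in the 3 SAS root libraries. Gh_A03G0417 was at 1.29, 0.433 and 0.22 there, and Gh_D11G3322 at 1.15, 0.0728 and 0.

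The treatment response was compared between tissues by an interaction term. All 12 laccases tested in each tissue were laccase 14 genes. The SAS response in root minus that in leaf was lower for 11 of the 12, where 24.8% of all genes tested were, and higher for 1, where 24.2% were. For AS it was lower for 6 (17.0% of all genes) and higher for 0 (18.2%). The 0 is edgeR's count, and 0 were higher at an unadjusted p under 0.05 or with DESeq2 or limma. The medians were -1.18 for AS and -3.11 for SAS. The FPKM filter kept only laccase 14 genes here. In CK leaf the mean deposited FPKM was 0.669 for Gh_A05G2101, 0.917 for Gh_A05G2115 and 0.0791 for Gh_A05G2116, and Gh_A06G0997 was at 0 counts. These genes met the leaf filter only with treated leaf libraries, which favoured a negative difference. The counts of 11 and 6 among the 12 are therefore not read as a result about laccases. With the filter on counts, 53 laccases were tested, and for SAS 12 were lower (17.7% of all genes) and 11 higher (18.2%). The 11 were 5 unnumbered, 2 laccase 14, 2 laccase 7, 1 laccase 17 and 1 laccase 2 genes, and 11 of the 12 were laccase 14. For AS, 4 laccase 14 genes were lower (10.6% of all genes) and 2 laccase 7 genes higher (12.2%). For Gh_D05G2355 the SAS difference was -3.05 ± 0.35, adjusted p = 5.68e-06 and the AS difference was -2.35 ± 0.35, adjusted p = 0.000163. For Gh_A05G2115 they were -4.65 ± 0.64, adjusted p = 2.89e-05 and -2.08 ± 0.62, adjusted p = 0.0173, and for Gh_A05G2116 -5.12 ± 0.71, adjusted p = 2.96e-05 and -3.03 ± 0.72, adjusted p = 0.00453. Gh_A05G2112 was the 1 laccase whose SAS response was higher in root (2.03 ± 0.45, adjusted p = 0.00161). For Gh_A02G0638 the difference, -2.33 ± 0.53, adjusted p = 0.00188 in SAS, came with a fall in root and no called change in leaf.

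**Figure D4:**
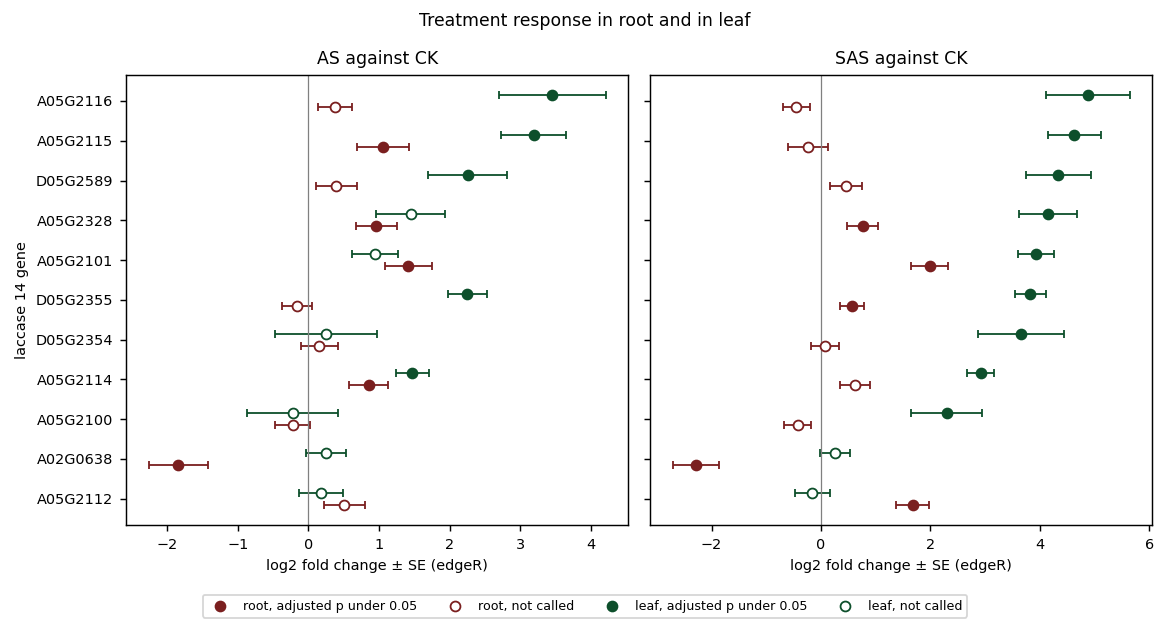
Log2 change against CK with its standard error (edgeR) for 11 laccase 14 genes tested in root and leaf, with AS on the left and SAS on the right, root in red and leaf in green, and filled points for an adjusted p under 0.05. Gh_A06G0997, at 0 in CK leaf, is left out. Under SAS, 9 of the 11 leaf points lie at 2.30 or above, and the root points of those genes lie between -0.45 and 1.99. Gh_A05G2101, Gh_A05G2115 and Gh_A05G2116 met the leaf filter only with treated leaf libraries, which favoured a high leaf point. The number of such points is therefore not read as a result about laccases.

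Even in SAS leaf most of these laccases were far below their root levels. In SAS plants the mean leaf level as a percentage of the mean root level was 0.071% for Gh_D04G1221, 0.774% for Gh_A05G2100, 1.72% for Gh_D05G2354, 4.88% for Gh_A05G2328 and 13.2% for Gh_A05G2114 and Gh_D05G2355. It was 106% for Gh_A06G0997. In CK plants it was 0.132% for Gh_A05G2100, 0.162% for Gh_D05G2354, 0.523% for Gh_A05G2328, 3.0% for Gh_A05G2114 and 1.54% for Gh_D05G2355. The laccase 7 gene Gh_D04G1221 was as high in root as some of the laccase 14 genes that rose in leaf. It was at 0.0741, 0 and 0 in SAS leaf, on 11 counts, and at 0.0312, 0 and 0.0261 in CK leaf. The root scaffold model Gh_Sca263995G01 was at 0 in all CK and AS leaf libraries and at 0.347, 1.05 and 0.24 in SAS leaf.

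Lists of markers for other cell types moved with these groups, and their part in the laccase values was not tested. Root hair markers (40 genes, 22 at 0 in CK root and 29 at 0 in CK leaf) summed to 204 to 215 in CK root, 48.9 to 68.3 in AS root and 36 to 40.8 in SAS root. In leaf they summed to 4.30 to 6.83 in CK, 8.72 to 19.3 in AS and 9.53 to 19.95 in SAS. Xylem markers (29 genes) summed to 111 to 161 in CK root, 90.3 to 141 in AS root and 224 to 275 in SAS root. In the leaf libraries the sum was 16.7 to 27.7. Of the CK root mean of 133, 57.8 came from Gh_D12G0132 and 38.4 from Gh_A12G0118, both named xylem NAC domain 1. In AS root Gh_A12G0118 fell (log2 change -1.58), while Gh_D04G0278, of the same name, rose (1.83). The xylem sums thus rest largely on copies of a single regulator. The list drawn up for the endodermis held 132 genes, mostly the Casparian strip family. It summed to 1047 to 1300 in CK root, 2805 to 3266 in AS root and 4341 to 5183 in SAS root. In leaf it summed to 636 to 808, with the SAS leaf range of 636 to 689 below the CK range of 747 to 808. With such leaf sums the list is not particular to the endodermis. Gh_D09G2255 alone went from a mean of 307 in CK root to 1133 in AS root. Of the genes named myb domain protein 36, Gh_D06G0223 fell in AS root (log2 change -2.48) and Gh_A09G1369 rose in SAS root (3.05). Phloem markers (12 genes) summed to 65.8 to 111 in CK root, 81.8 to 126 in AS root and 212 to 654 in SAS root. Leaf mesophyll markers summed to 14684 to 18906 in CK leaf, 14092 to 15369 in AS leaf and 4196 to 8320 in SAS leaf, where 34 of 54 tested fell, beside 26.0% of all genes.

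The lists of other pathway genes, read against the shares of all genes given above, were counted in the same fits. Of the class III peroxidases, which also oxidise monolignols, 11 of 89 tested rose and 44 fell in AS root, and 20 rose and 52 fell in SAS root. In leaf 20 of 51 rose and 3 fell in AS, and 31 rose and 11 fell in SAS. Gh_D11G2183, named peroxidase 2, rose from 0.614, 1.35 and 0.298 in CK root to 32.3, 35.8 and 42.7 in AS root (log2 change 5.54 ± 0.48, adjusted p = 5.01e-05, edgeR). The monolignol enzymes, which make the alcohols, were counted likewise: 6 of 81 tested rose and 51 fell in AS root, and 18 rose and 37 fell in SAS root. In leaf 24 of 84 rose and 20 fell in AS, and 38 rose and 26 fell in SAS. The median log2 changes in these 4 comparisons were -1.29, -0.88, 0.26 and 0.55 for monolignol enzymes and -1.48, -2.10, 0.84 and 1.51 for peroxidases. For laccases they were 0.51, 0.46, 0.25 and 2.30. With library totals the median of all genes moved by -0.48 in AS root and -0.59 in SAS root, so the root medians depend on the scaling. Some laccases met the leaf filter only with treated leaf libraries, which favoured a high leaf median. Gh_A01G1839, a phenylalanine ammonia-lyase at the entry of the pathway, fell in AS leaf from 1142, 1018 and 1068 to 324, 383 and 358 (log2 change -1.55 ± 0.23, adjusted p = 0.00203, edgeR).

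**Figure D5:**
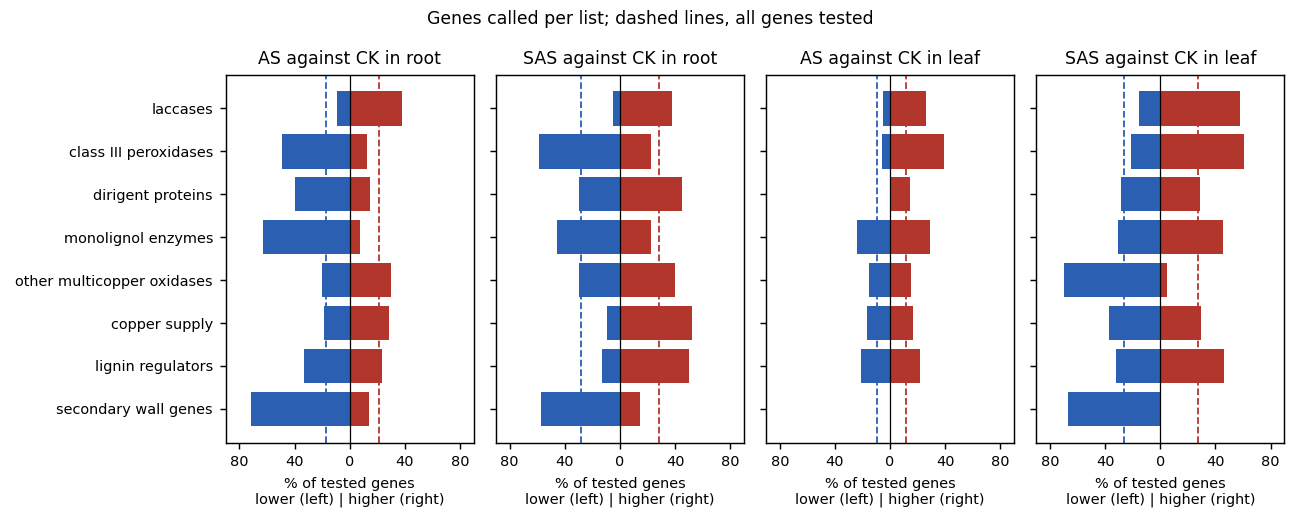
Share of the tested genes of each list called higher (red, right) or lower (blue, left) against CK, in 4 comparisons, with dashed lines at the share of all genes tested. In AS and SAS root the laccase bar is longer to the right, and the peroxidase and monolignol bars are longer to the left. In SAS leaf the laccase and peroxidase bars are both longer to the right. The root laccase counts changed with library totals as the scaling, and some laccases met the leaf filter only with treated leaf libraries. The laccase bars are therefore not read as a result about laccases.

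Dirigent proteins, which steer the coupling of monolignol radicals, had 6 rises and 16 falls of 40 tested in AS root and 18 and 12 in SAS root. In leaf they had 4 rises and 0 falls of 28 in AS and 8 and 8 in SAS. The other multicopper oxidases, the ascorbate oxidases and SKU5-like proteins, are the closest relatives of laccases on the list. Of these, 6 of 20 rose and 4 fell in AS root, 8 rose and 6 fell in SAS root, 3 rose and 3 fell in AS leaf and 1 rose and 14 fell in SAS leaf. Copper supply genes had 6 rises and 4 falls of 21 in AS root and 11 and 2 in SAS root. In leaf they had 4 and 4 of 24 in AS and 7 and 9 in SAS.

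Secondary wall genes, the cellulose synthase and related wall genes, had 1 rise and 5 falls of 7 tested in AS root, 1 and 4 in SAS root, 0 and 0 of 15 in AS leaf and 0 and 10 in SAS leaf. Regulators of lignin genes, mostly MYB and NAC factors, had 7 rises and 10 falls of 30 in AS root, 15 and 4 in SAS root, 6 and 6 of 28 in AS leaf and 13 and 9 in SAS leaf. Gh_D08G2456, named MYB63, a lignin activator in Arabidopsis, was at 1.79, 1.79 and 3.06 in CK leaf and at 32.2, 36.4 and 26.1 in SAS leaf (log2 change 3.93 ± 0.40, adjusted p = 6.18e-05, edgeR). Of 4 proanthocyanidin genes, 2 were tested and both fell in all 4 comparisons against CK.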

How the data were processed

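Poly(A) RNA was sequenced in pairs on an Illumina HiSeq, per the labels' protocols. HISAT and StringTie are named in the submitters' processing notes, without versions; the genome build, strand setting and treatment of reads that match A and D copies alike are not given in the sources used here. The authors deposited a read count and an FPKM per gene and library. Even numbers made up 56.1% to 59.8% of the counts between 1 and 20.

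Genes with FPKM of at least 1 in at least 3 libraries of a fit were tested on counts with edgeR 4.0.16 in R 4.3.3 (TMM, quasi-likelihood, Benjamini-Hochberg over all genes tested, threshold 0.05). The 9 root and 9 leaf libraries were fitted apart (39584 and 44761 genes). CK root against CK leaf (48954 genes) and the tissue interactions (35697) came from fits of all 18. Printed levels are deposited FPKM divided by TMM factors of 0.974 to 1.097 in CK root, 0.668 to 0.754 in AS root, 0.654 to 0.698 in SAS root and 1.189 to 1.331 in leaf. A change is a log2 difference ± its standard error, with n = 3 per group. A floor is 3 counts per library and covers counting error only.

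Named genes are the 5 highest laccases of a comparison and up to 8 called in each direction, with up to 5 per interaction; from other lists, at most 1 gene in each direction per comparison. The members and lists were chosen with earlier results of these data known. Alternatives used DESeq2 1.42.0, limma 3.58.1 on log2(FPKM + 1) and log2(FPKM + 0.1), other scalings and filters, a replicate block, and each library left out. The fits were tested on simulated data.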

Additional observations from a re-analysis of the deposited data

Results flagged for a closer look

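The values below stood out because the test of the difference between tissues passed (edgeR interaction, adjusted p under 0.05). Each is the log2 response in root minus that in leaf. Gh_A05G2101, Gh_A05G2115, Gh_A05G2116 and Gh_A06G0997 met the leaf filter only with treated leaf libraries, which favoured a negative difference. Under AS it was -2.03 for Gh_A02G0638, -2.08 for Gh_A05G2115, -3.03 for Gh_A05G2116, -2.35 for Gh_D05G2355 and -1.81 for Gh_D05G2589. Under SAS it was -2.33 for Gh_A02G0638, -2.50 for Gh_A05G2100, -1.73 for Gh_A05G2101, -2.08 for Gh_A05G2114, -4.65 for Gh_A05G2115 and -5.12 for Gh_A05G2116. It was also -3.17 for Gh_A05G2328, -3.36 for Gh_D05G2354, -3.05 for Gh_D05G2355 and -3.66 for Gh_D05G2589. Gh_A05G2112 went the other way under SAS, at 2.03. Gh_A06G0997 had fitted values of -7.79 under AS and -9.97 under SAS, which depend on the prior count because CK leaf was at 0 counts. Its AS call was lost in 14 of 20 alternatives.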

How the results depend on the processing

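Over 96 pairs of a laccase and a comparison, 1336 of 1471 alternatives kept the direction and side of the threshold, 104 lost a call, 10 gained one and 21 turned an uncalled sign. With library totals, 5 laccases were higher and 4 lower in AS root, 4 lower in SAS root and 8 higher in AS leaf. The share of all genes called with library totals is not given here, so these counts have no share beside them. With limma, 4 were higher in AS root at either pseudocount, 5 and 4 lower there, and 4 lower in SAS root. DESeq2 gave 2 lower in SAS root. The cause of these changes was not tested. Tested without a filter, and so on more laccases, 4 were lower in AS root, 3 lower in SAS root, 7 higher in SAS than in AS root, 9 lower in SAS leaf, 7 lower in SAS than in AS leaf and 22 lower in CK root than in leaf, and 2 and 10 were higher in the AS and SAS interactions. With filterByExpr these were 3 lower in SAS root, 8, 5, 22, 2 and 11. One fit of all 18 libraries gave 5 higher in AS root, 1 lower in SAS than in AS root, and 0 lower in each leaf comparison, and the cause was not tested.

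Leaving out single libraries gave 5 to 7 higher and 1 to 3 lower in AS root, 6 to 8 and 1 to 2 in SAS root, 3 to 6 and 0 to 2 for SAS against AS root, 3 to 6 and 1 to 1 in AS leaf, 11 to 11 and 3 to 4 in SAS leaf, 7 to 10 and 0 to 3 for SAS against AS leaf, 17 to 17 and 6 to 8 for CK root against leaf, 0 to 0 and 4 to 5 in the AS interaction and 1 to 1 and 11 to 11 in the SAS interaction. The count was 3 in AS leaf without CK leaf replicate 2, 5 in AS root without CK root replicate 1 or AS root replicate 2 or 3, and 0 lower without SAS root replicate 1 (SAS against AS root) or AS leaf replicate 2 (SAS against AS leaf).

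Uncalled signs turned for Gh_D05G2354 and Gh_D05G2589. With library totals, limma at +1 and limma at +0.1 in turn, Gh_D05G2354 was at -0.30, -0.30 and -0.30 in AS root and -0.44, -0.45 and -0.45 in SAS root, and Gh_D05G2589 at -0.0634, -0.0720 and -0.0721 in AS root and -0.0587, -0.13 and -0.13 in SAS root. For SAS against AS root limma gave -0.0573 and -0.0575. Without single libraries Gh_D05G2354 ranged from -0.0101 to 0.27 in AS root, from -0.0856 to 0.20 in SAS root and from -0.15 to 0.0065 for SAS against AS root. For SAS against AS root Gh_D05G2589 ranged from -0.16 to 0.31 and Gh_A05G2328 from -0.33 to 0.0030. The cause was not tested.

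The share of laccases was 1.09%, 0.999%, 0.853% and 0.0133% of counts in CK, AS and SAS root and CK leaf, and 0.661%, 0.639% and 0.554% of FPKM in the 3 root groups without the highest laccase.

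The replicate numbers did not pair the libraries: same-numbered libraries correlated at -0.183 to 0.101 in root and -0.167 to 0.166 in leaf, and 5 of 36 correlated best with their own number. With a replicate block, 8 laccases were higher and 2 lower in AS root, 8 and 1 in SAS root, 4 and 2 for SAS against AS root, 6 and 1 in AS leaf, 11 and 4 in SAS leaf, 10 and 2 for SAS against AS leaf, 17 and 6 for CK root against leaf, 0 and 5 in the AS interaction and 1 and 11 in the SAS interaction. The block ended the calls of Gh_D02G0685 (adjusted p 0.0585) and Gh_A01G1905 (0.183) between CK root and leaf and that of Gh_A05G2328 in SAS root (0.0636), and made that of Gh_A05G2114 in SAS root pass (0.0347).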
